A study of Mus musculus with 18 samples.

Results

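The genes described here make, sense and export cholesterol and build fatty acids. They are 39 genes fixed as a list by function: the enzymes from acetyl-CoA to cholesterol, the regulators and targets of the transcription factors SREBP1 and SREBP2, the enzymes of fatty acid synthesis, and genes of the nuclear receptor LXR and of cholesterol efflux. Of the 39, 37 had a probe set naming that gene alone, out of 19752 genes measured in this way, and all 37 passed the filter on low values. Acat2 and Soat1 had none and are named only. For each gene the probe set of the highest mean was used. The list was proposed with earlier results of these data known, among them low values of the cholesterol enzymes on some arrays. Its choice is therefore not independent of the values described here.

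The 18 samples were mouse cells on 1-colour gene arrays, 9 of them called BRAF and 9 called WT, in 4 populations. All mice carried the BRAFV600E(CA-flox) allele; BRAF mice also carried CD11c-Cre, and WT mice were littermates negative for CD11c-Cre, so the WT cells hold the allele uncut. Bone marrow derived dendritic cells (BMDC) came from mice of 5 weeks, were left untreated and were sorted as live CD11c+CD11b+ cells, with 3 arrays per genotype. CD11b+ cells of liver, and CD11b+ and CD103+ cells of lung, came from unmanipulated mice of 14 weeks, with 2 arrays per genotype each; no further gate is given for them. CD11c-Cre acts in any cell that expresses CD11c, which some macrophages do beside dendritic cells. Whether replicates are different mice or cultures is not said in the labels, and the p-values then reflect only how far these samples spread, possibly for technical reasons.

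Values are log2 of the deposited intensity, differences are BRAF minus WT with their standard errors (SE), and a gene was called at an adjusted p under 0.05 by limma, adjusted by the Benjamini-Hochberg method over all 15365 tested genes. The number of arrays limits the precision. Braf itself differed by -0.12 to 0.32 between genotypes in the 4 populations and was not called (adjusted p 0.608 to 1), and the array does not tell the mutant from the normal allele. A narrow spread marked a pair of arrays: the interquartile range was 1.9 (log2) for BRAF BMDC replicate 2 and 1.92 for WT liver CD11b+ replicate 3, while on all other arrays it was at least 2.4. Xcr1 and Clec9a, markers of type 1 dendritic cells, lay at 12.02 to 12.58 on the lung CD103+ arrays. Flt3, a receptor of dendritic cell precursors and conventional dendritic cells, lay at 5.55 to 6.02 on the BMDC arrays and passed the low-value limit on only 3 of those 6. Other conventional dendritic cell markers varied in level on these arrays. Kit lay at 5.73 to 6.1, Irf4 at 8 to 10.2 and Itgax, the gene of CD11c used in the sort, at 10.66 to 12.18. Adgre1, which encodes the macrophage protein F4/80, lay at 10.07 to 11.44 in BMDC and in both CD11b+ populations. In bulk samples, fewer cells of a type and less RNA per cell cannot be told apart.

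As background, cells build cholesterol from acetyl-CoA through mevalonate, isoprenoids, squalene and lanosterol. When membrane sterol is low, the escort protein SCAP carries SREBP2 to the Golgi, where it is cut, and the freed factor switches on nearly every enzyme of the route. When sterol is plentiful, INSIG proteins hold SCAP back, and oxysterols such as 25-hydroxycholesterol do the same while they activate LXR, which drives efflux through ABCA1 and ABCG1. Macrophages and dendritic cells adjust both sides during activation and when they take up lipid.

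SREBPs bind sterol response elements, usually beside sites of the factor NF-Y, which reads CCAAT, so the stretches upstream of a few members are shown. The sequences are from RefSeq (GRCm38.p6), 250 bases before the annotated start, 5′ to 3′ on the gene's strand. Capitals mark the sterol element TCACNCCAC, CCAAT, which reads as ATTGG when it lies on the opposite strand, and the E-box CACGTG, which reads the same on both strands. The first 4 belong to genes called lower in BRAF BMDC, Ch25h was called higher there, and Abca1 is the efflux gene that differed between the lung populations. Hmgcs1 lies at chr13:119690101-119690350 (+), Hsd17b7 at chr1:169969206-169969455 (-), Sc5d at chr9:42264301-42264550 (-), Insig1 at chr5:28071162-28071411 (+), Ch25h at chr19:34475149-34475398 (-) and Abca1 at chr4:53159896-53160145 (-).
Hmgcs1: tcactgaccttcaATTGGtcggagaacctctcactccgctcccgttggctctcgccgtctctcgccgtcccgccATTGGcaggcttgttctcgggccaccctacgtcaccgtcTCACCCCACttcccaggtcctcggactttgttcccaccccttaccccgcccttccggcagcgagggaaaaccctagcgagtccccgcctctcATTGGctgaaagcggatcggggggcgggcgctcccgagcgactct
Hsd17b7: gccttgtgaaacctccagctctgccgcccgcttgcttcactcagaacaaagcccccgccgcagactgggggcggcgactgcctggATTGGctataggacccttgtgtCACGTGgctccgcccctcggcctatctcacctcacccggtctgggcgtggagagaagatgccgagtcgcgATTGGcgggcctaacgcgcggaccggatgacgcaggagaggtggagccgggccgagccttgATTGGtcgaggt
Sc5d: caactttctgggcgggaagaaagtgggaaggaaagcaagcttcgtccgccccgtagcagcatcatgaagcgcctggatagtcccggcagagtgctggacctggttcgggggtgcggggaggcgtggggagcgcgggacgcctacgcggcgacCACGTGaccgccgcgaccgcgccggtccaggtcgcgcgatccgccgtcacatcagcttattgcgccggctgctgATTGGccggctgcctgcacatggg
Insig1: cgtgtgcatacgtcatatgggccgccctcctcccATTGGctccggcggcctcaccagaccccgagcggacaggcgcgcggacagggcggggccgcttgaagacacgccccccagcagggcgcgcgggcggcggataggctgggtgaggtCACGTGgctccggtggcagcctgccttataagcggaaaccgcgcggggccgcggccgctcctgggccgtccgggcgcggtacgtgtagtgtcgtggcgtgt
Ch25h: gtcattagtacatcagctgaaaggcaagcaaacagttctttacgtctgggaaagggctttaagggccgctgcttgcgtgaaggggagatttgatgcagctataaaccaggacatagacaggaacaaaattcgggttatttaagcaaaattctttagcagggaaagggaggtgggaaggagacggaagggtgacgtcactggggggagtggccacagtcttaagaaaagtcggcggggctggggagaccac
Abca1: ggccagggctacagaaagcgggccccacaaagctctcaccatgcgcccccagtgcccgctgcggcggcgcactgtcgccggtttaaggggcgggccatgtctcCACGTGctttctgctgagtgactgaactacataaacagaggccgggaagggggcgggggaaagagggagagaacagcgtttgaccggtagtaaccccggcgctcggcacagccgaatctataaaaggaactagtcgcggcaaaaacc

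Windows of 300 bases, the 250 above and 50 after the start, were found for 31 of the 39 members. The sterol element TCACNCCAC, searched on both strands, was in the window of 1 member, Hmgcs1, as TCACCCCAC from 137 bases before the start, and in 1.44% of all 27025 genes with windows. CCAAT on either strand was in a window of 11 of the 11 genes called lower in BRAF BMDC, of 14 of the 15 sterol enzymes with a window, and of 41.1% of all genes. CACGTG was in 4 of the 11 (Hsd17b7, Sc5d, Insig1 and Dhcr7) and in 8.09% of all genes. An exact match to the LXR element, AGGTCA repeated directly after 4 bases, was in 0 member windows and in 0.015% of all genes. Exact matches were so rare that 0 among the members could hardly be otherwise. Looser forms of this element were not searched, so the members may hold them. Ch25h held none of the motifs. A match describes these letters only, and the search says nothing of binding.

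In BMDC the route to cholesterol was lower in BRAF cells from end to end. For all 17 sterol enzymes measured, every BRAF array lay below every WT array, where 9.08% of all genes did so, and the median difference was -1.62 against 0 over all genes tested. Of the 37 members 12 were called, where 0.521% of all genes were: 11 fell and 1 rose, against 0.189% of all genes called lower and 0.332% called higher. Over all 37 members 35 differences were negative (49.6% of all genes), and 27 had BRAF arrays below WT arrays without overlap. The 11 that fell were 10 sterol enzymes and Insig1, and the 1 that rose was Ch25h. These members were chosen knowing that the route was low in these arrays, so their number is a description.

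**Figure D1:**
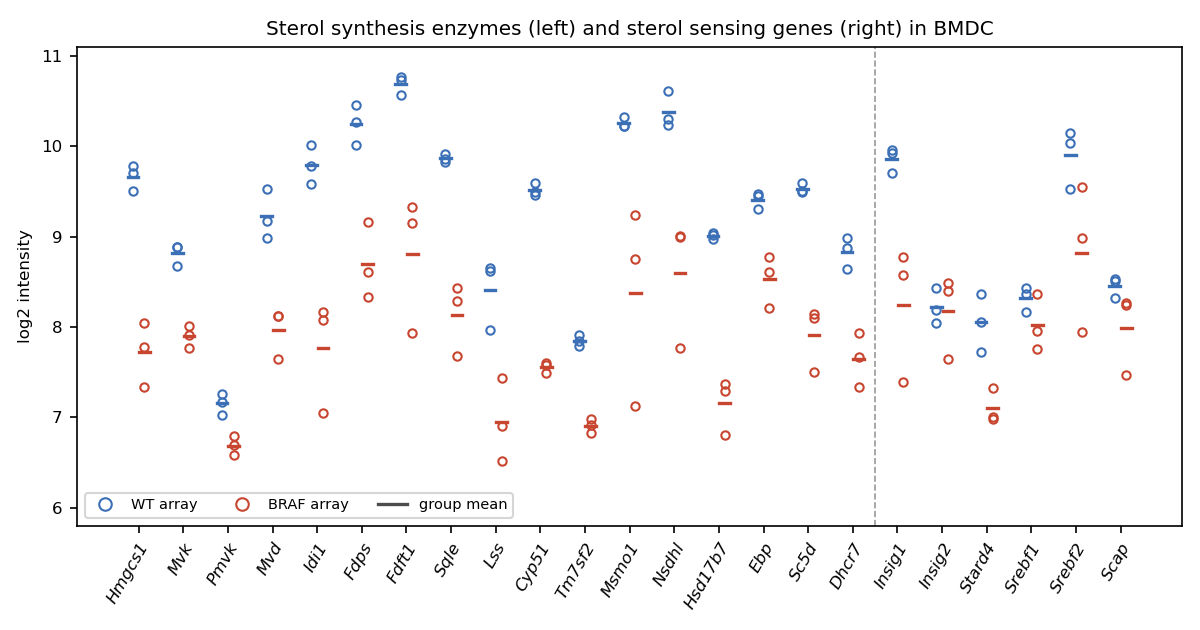
Log2 intensity of the 17 sterol synthesis enzymes (left of the dashed line, in the order of the route) and of 6 sterol sensing and transfer genes (right) on each BMDC array; circles are arrays, bars are group means, n = 3 per genotype. For every enzyme the BRAF circles lie below the WT circles, while Insig2, Srebf1 and Srebf2 overlap.

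The first enzymes form mevalonate and turn it into isoprenoid units. Hmgcs1, the synthase that joins acetyl-CoA to acetoacetyl-CoA, had log2 values of 9.5, 9.78 and 9.7 in WT and 7.78, 7.34 and 8.04 in BRAF BMDC. The groups were separated by more than their own range, and Hmgcs1 fell by 1.94 ± 0.3, a 3.84-fold change (adjusted p = 0.008). Mvk, mevalonate kinase, read 8.88, 8.88 and 8.68 in WT and 7.77, 8.01 and 7.91 in BRAF cells. It fell by 0.92 ± 0.17 (adjusted p = 0.0219). Mvd, the decarboxylase that ends the mevalonate steps, fell by 1.27 ± 0.23 (adjusted p = 0.0219), from 8.99, 9.53 and 9.17 to 7.65, 8.12 and 8.12. Both enzymes were low on all 3 BRAF arrays.

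The other enzymes of these steps had non-overlapping genotypes but were not called. Idi1, the isomerase that makes the reactive isoprenoid unit, differed by -2.03 ± 0.54 (adjusted p = 0.196), with BRAF arrays at 8.08, 7.05 and 8.16 and WT arrays at 9.58 to 10.01. Its difference was the largest of the 17 in size, and its spread between arrays was also wide. Fdps, which joins the units to farnesyl diphosphate, differed by -1.55 ± 0.48 (adjusted p = 0.357). Pmvk, phosphomevalonate kinase, had the smallest difference of the 17, -0.47 ± 0.21 (adjusted p = 0.714). Ggps1, which sends isoprenoids to protein prenylation and not to sterol, differed by -0.2 ± 0.3 (95% interval -0.84 to 0.45), and its genotypes overlapped.

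The next enzymes form squalene and close it into the first sterol. Lss, which makes lanosterol, fell by 1.47 ± 0.28 (adjusted p = 0.0261), with WT arrays at 8.62, 8.65 and 7.97 and BRAF arrays at 6.9, 6.51 and 7.43. The lowest WT array lay above the highest BRAF array. Fdft1, squalene synthase, read 10.77, 10.57 and 10.73 in WT and 9.33, 7.93 and 9.15 in BRAF cells, and its difference of -1.89 ± 0.4 lay just outside the threshold (adjusted p = 0.0521). Sqle, squalene epoxidase, read 9.91, 9.86 and 9.83 in WT and 8.29, 7.68 and 8.43 in BRAF cells, a difference of -1.73 ± 0.41 (adjusted p = 0.0959). In both genes the BRAF arrays lay over 1 unit below the WT arrays. The second probe sets of Idi1 and Fdft1 also had lower BRAF than WT means in BMDC.

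Of the enzymes that trim lanosterol to cholesterol, 6 of 8 fell. Hsd17b7, a ketoreductase of the demethylation complex, read 9.02, 9.04 and 8.97 in WT and 7.29, 6.8 and 7.37 in BRAF BMDC. WT arrays differed by under 0.1 and the BRAF arrays lay well below them, with a fall of 1.86 ± 0.26 (adjusted p = 0.00375). Cyp51, the lanosterol demethylase, read 9.49, 9.46 and 9.59 in WT and 7.58, 7.49 and 7.6 in BRAF cells. Both groups were tight in BMDC, and the fall was 1.96 ± 0.39 (adjusted p = 0.0354), where the SE carries the wider spread of Cyp51 in the other populations.

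Nsdhl, the decarboxylase of the same complex, fell by 1.79 ± 0.32 (adjusted p = 0.0174), from 10.61, 10.3 and 10.24 to 9.01, 7.77 and 9. Sc5d, the desaturase that forms the ring double bond, fell by 1.62 ± 0.26 (adjusted p = 0.0102), from 9.59, 9.51 and 9.49 to 8.1, 7.5 and 8.14. In both genes BRAF replicate 2 was the lowest array and the other 2 BRAF arrays were still below all WT arrays. Dhcr7, the last reductase of the route, fell by 1.18 ± 0.21 (adjusted p = 0.0185). Tm7sf2, a sterol reductase of the nuclear and endoplasmic membranes, fell by 0.94 ± 0.16 (adjusted p = 0.0148). Msmo1, the methylsterol oxidase, and Ebp, the sterol isomerase, were not called, with differences of -1.89 ± 0.42 (adjusted p = 0.0691) and -0.88 ± 0.27 (adjusted p = 0.337).

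How firmly each call stood depended on single arrays. Hsd17b7 stayed called without each of the 6 BMDC arrays, and Hmgcs1 lost its call only without WT replicate 2 (adjusted p = 0.0573). Sc5d and Nsdhl lost theirs without any 1 WT array (adjusted p = 0.0511 to 0.0674 and 0.0601 to 0.125). Insig1, Tm7sf2, Dhcr7 and Mvd lost theirs without any 1 WT array or BRAF replicate 1, with adjusted p up to 0.155, 0.104, 0.13 and 0.164. Lss kept its call only without WT replicate 3 or BRAF replicate 3 (otherwise up to 0.178), Mvk only without BRAF replicate 2 (otherwise up to 0.148), and Cyp51 lost its call without any 1 of the 6 (0.0964 to 0.178). The number of members called fell from 12 to 2, 1 and 3 without WT replicates 1, 2 and 3 and to 4 without BRAF replicate 1, and was 10 without BRAF replicate 2, the array of narrow spread. No direction turned.

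The level of the route in WT BMDC was the highest in the series. For 17 of 17 sterol enzymes all 3 WT BMDC arrays lay above all 15 other arrays, which held for 275 of the 15365 genes tested (1.79%). This comparison was chosen after the values were seen. The mean over the 17 enzymes was 9.37, 9.39 and 9.24 on the WT BMDC arrays, 7.94, 7.46 and 8.12 on the BRAF BMDC arrays and 7.09 to 8.31 on the organ arrays. For 12 of the 17 enzymes all BRAF BMDC arrays lay within the range of the organ arrays, as they did for 47.8% of all genes.

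Averaged over both genotypes, 23 of 37 members were called between BMDC and the mean of the organ populations, where 18.8% of all genes were called. In BMDC 20 of them were higher (11.6% of all genes) and 3 lower (7.11%). The fatty acid enzymes led, with Fads2, the delta-6 desaturase, 2.3 ± 0.26 higher (adjusted p = 1.65e-05) and Scd2, a stearoyl-CoA desaturase, 2.11 ± 0.26 higher (adjusted p = 3.28e-05). Scd1 was 2.37 ± 0.42 higher (adjusted p = 0.000871). Nr1h3, which encodes LXR-alpha, was lower in BMDC by 1.1 ± 0.25 (adjusted p = 0.00507), as were Scap by 0.54 ± 0.14 (adjusted p = 0.0159) and Mylip by 0.46 ± 0.14 (adjusted p = 0.0334). Leaving out each of the 18 arrays in turn, the calls of Mylip and of Fdps were kept in only 7 fits each (adjusted p up to 0.0955 and 0.113). Culture, organ and age of the mice differ together here and cannot be told apart.

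The genes that sense sterol did not move as one block in BMDC. Insig1, itself an SREBP target, read 9.93, 9.96 and 9.7 in WT and 8.58, 7.39 and 8.77 in BRAF BMDC. All BRAF arrays lay below all WT arrays, and Insig1 fell by 1.61 ± 0.31 (adjusted p = 0.0267). Insig2, the partner protein under other control, read 8.19, 8.43 and 8.04 in WT and 8.4, 7.65 and 8.49 in BRAF cells, a difference of -0.03 ± 0.24 (95% interval -0.56 to 0.49). The interval for Insig2 lies above the one for Insig1 (-2.26 to -0.96).

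The SREBP genes and Scap were not called in BMDC. Srebf2, the regulator of the sterol route, read 10.04, 10.15 and 9.53 in WT and 8.98, 7.94 and 9.55 in BRAF cells, so that its genotypes overlapped narrowly, and it differed by -1.08 ± 0.41 (adjusted p = 0.59). Srebf1, which governs fatty acid enzymes, differed by -0.29 ± 0.2 (adjusted p = 0.737), and Scap by -0.46 ± 0.24 (adjusted p = 0.737) with all BRAF arrays below all WT arrays. Stard4, a sterol transfer protein and SREBP2 target, differed by -0.95 ± 0.25 (adjusted p = 0.171) with no overlap. Intensity of the mRNA does not show how much SREBP protein is cut.

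The 8 fatty acid enzymes all had negative differences in BMDC, with a median of -1 and no overlap in 6, but limma called 0 of them, with 5 at an unadjusted p under 0.05, as were 6.65% of all genes. Fasn, the fatty acid synthase, read 10.18, 10.3 and 9.95 in WT and 8.88, 7.86 and 9.38 in BRAF cells, a difference of -1.44 ± 0.4 (adjusted p = 0.239). Elovl6, which lengthens palmitate, differed by -1.16 ± 0.28 (adjusted p = 0.0993), with BRAF arrays at 8.61, 8.34 and 8.83 and WT arrays at 9.48 to 9.99. Fads2 read 10.87, 10.77 and 10.75 in WT and 9.38, 9.63 and 9.69 in BRAF cells. Both Fads2 groups were tight and far apart in BMDC, and the difference of -1.23 ± 0.42 missed the threshold (adjusted p = 0.495) with an SE set by its spread in liver and lung.

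For the other fatty acid enzymes BRAF replicate 2 was far below the other BRAF arrays. Scd1 read 10.37, 8.65 and 10.23 in BRAF and 10.86 to 11.22 in WT BMDC, a difference of -1.25 ± 0.68 (adjusted p = 0.737). Acly, which supplies cytosolic acetyl-CoA, read 9.77, 8.23 and 10 in BRAF and 9.91 to 10.17 in WT cells, so that its genotypes overlapped, as did those of Scd2 (-0.85 ± 0.42, adjusted p = 0.737). Acaca, acetyl-CoA carboxylase, differed by -0.83 ± 0.31 and Fads1, the delta-5 desaturase, by -0.74 ± 0.29 (adjusted p = 0.589 and 0.635), each without overlap.

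Ch25h, which makes 25-hydroxycholesterol, was the only member that rose in BMDC, and the only one with all BRAF arrays above all WT arrays (6.99% of all genes). It read 7.34, 7.19 and 7.22 in WT and 11.09, 9.22 and 11.02 in BRAF cells. The WT arrays were near alike, and each BRAF array was far above them, with a rise of 3.19 ± 0.64 (9.16-fold, adjusted p = 0.0337). The call was kept without BRAF replicate 2, and it was lost without any other BMDC array (adjusted p = 0.127 to 0.194). The efflux and LXR genes were not called in BMDC: Abca1, the cholesterol exporter to lipid-poor apolipoprotein, read 9.09, 9.28 and 8.72 in WT and 9.42, 8.21 and 9.39 in BRAF cells and differed by -0.02 ± 0.53 (95% interval -1.15 to 1.11) and Abcg1, the exporter to HDL, by -0.57 ± 0.39. Nr1h3 differed by -0.51 ± 0.4 with all BRAF arrays below all WT arrays, and Mylip, an LXR target that degrades lipoprotein receptors, by 0.15 ± 0.23.

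Other genes of the pathway, from 9 lists beside the 39 members, had 0 calls by limma in any population. In BMDC the nearest were Acss2, the acetyl-CoA synthetase of the cytosol, at -1.09 ± 0.24 (adjusted p = 0.0643), and Aacs, acetoacetyl-CoA synthetase, at -1.03 ± 0.23 (adjusted p = 0.0685). Of 25 further genes of fatty acid and triglyceride synthesis tested, 4 had an unadjusted p under 0.05 in BMDC. Of 16 genes of sterol uptake and transport 1 did, with a list median of -0.2, and Scarb1, the HDL receptor, had the smallest p (-1 ± 0.41, adjusted p = 0.67). Of 10 genes of SREBP processing 0 did. Of 15 genes of fatty acid oxidation 3 did, and the list median was -0.4 with 14 of 15 differences negative.

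The cell cycle list also had negative differences in BMDC, without a call. All 17 measured on that list had a negative difference, with a median of -0.62 and no overlap in 12 (9.08% of all genes), and limma called 0, with 0 at an unadjusted p under 0.05. Their mean was 9.99, 9.99 and 9.88 on the WT and 9.52, 8.85 and 9.73 on the BRAF arrays, so that BRAF replicate 2 was lowest here too. Its part in the sterol result was not tested. Without BRAF replicate 2 the median of the 17 sterol enzymes was -1.36.

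**Figure D2:**
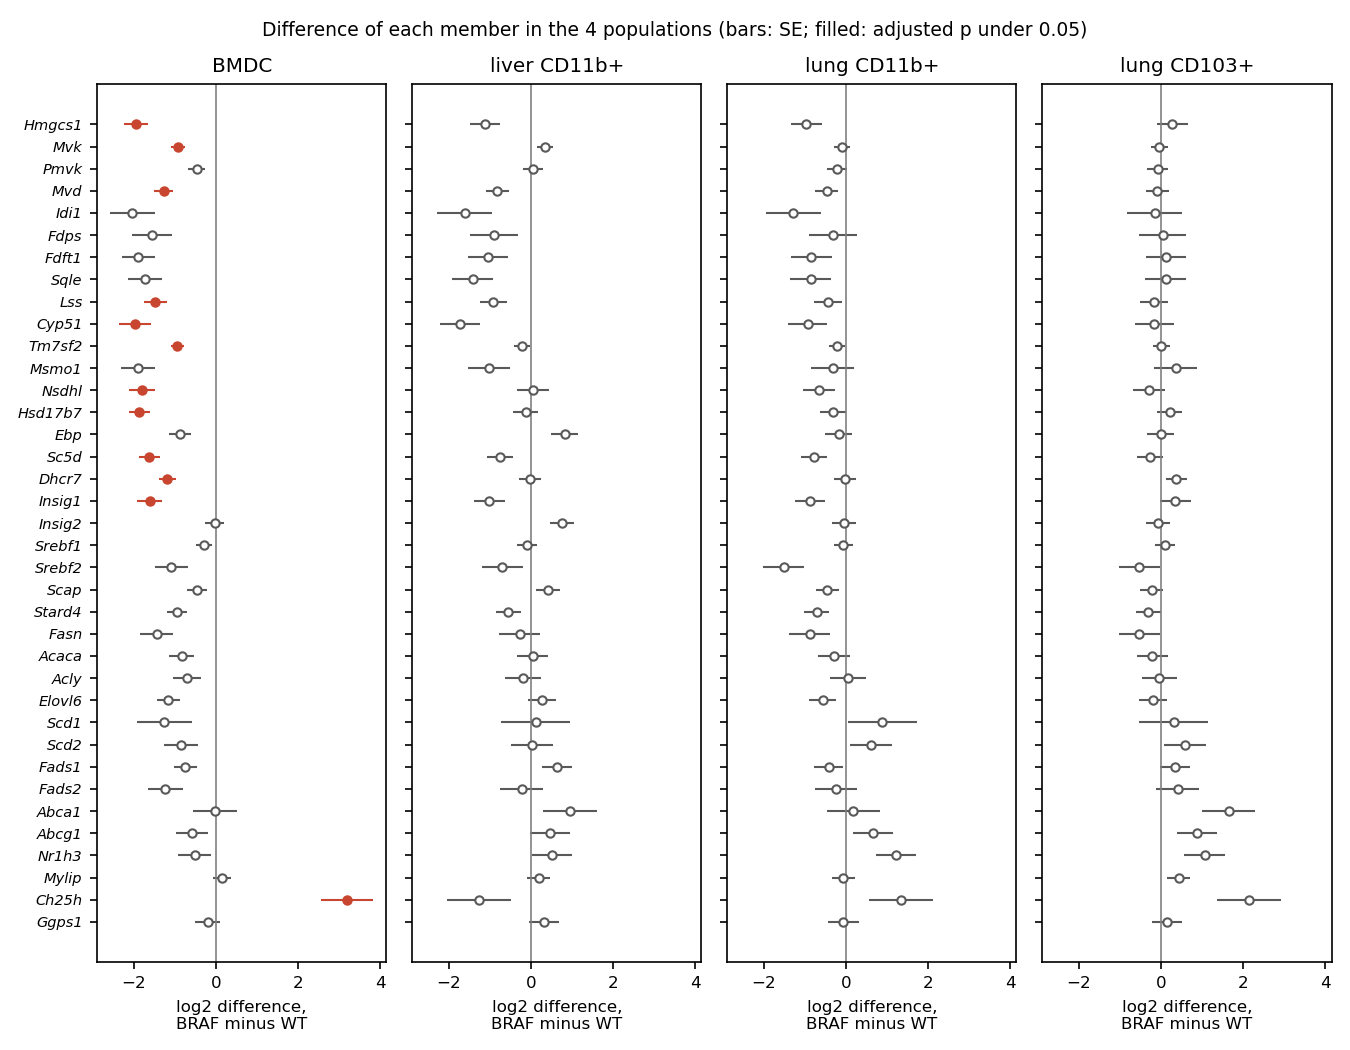
Log2 difference, BRAF minus WT, of the 37 measured members in the 4 populations, with SE bars; filled red points were called (adjusted p under 0.05), open points were not. Called members appear in the BMDC panel only, 11 below 0 and Ch25h at 3.19, while liver CD11b+ and lung CD11b+ cells also have most sterol enzymes below 0.

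In liver CD11b+ cells the same route had lower values in BRAF cells without a call. Of the 17 sterol enzymes 13 had negative differences (14 after quantile normalization, 12 after centring on array medians; 43.7% of all genes), 9 with no overlap (15.8%), and the median was -0.82 against 0.08 over all genes. Limma called 0 of the 37 members, where 0.215% of all genes were called, and 11 members had an unadjusted p under 0.05, as did 14.1% of all genes. Cyp51 read 8.23 and 8.04 in WT and 6.09 and 6.72 in BRAF liver cells, with a difference of -1.73 ± 0.48 (adjusted p = 0.171). Hmgcs1 read 8.74 and 8.33 in WT and 7.42 and 7.4 in BRAF cells, a difference of -1.12 ± 0.37 (adjusted p = 0.228). In both genes the 2 BRAF arrays lay below both WT arrays.

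Not every sterol enzyme shared this direction in liver. Ebp had a positive difference of 0.82 ± 0.33 (adjusted p = 0.292) and Mvk one of 0.34 ± 0.2 (adjusted p = 0.441), both without overlap (22.7% of all genes had BRAF arrays above WT arrays). Nsdhl and Hsd17b7, which fell in BMDC, differed by 0.04 ± 0.39 and -0.13 ± 0.31 in liver. Insig1 differed by -1.01 ± 0.37 and Insig2 by 0.76 ± 0.3 (adjusted p = 0.275 and 0.289), each without overlap. The 4 LXR and efflux genes had positive differences with a median of 0.49, 3 without overlap, led by Abca1 at 0.95 ± 0.65 (adjusted p = 0.491). The fatty acid enzymes had a median of 0.03, and Ch25h differed by -1.27 ± 0.78, with BRAF arrays at 5.84 and 6 and WT arrays at 6.58 and 7.8.

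The 2 BRAF liver arrays were unlike each other. Replicate 2 was lower than replicate 3 for 14 of 17 sterol enzymes, and Fdps read 6.91 and 9.47 on them against 9.15 and 9.03 in WT. Without BRAF replicate 2, whose group then held 1 array assumed to vary like the other groups, the median of the 17 was -0.48 and Fdps differed by 0.37. The cell cycle list had a mean of 7.68 on BRAF replicate 2 and 10.33 on replicate 3, against 8.39 and 8 in WT, and the hepatocyte list had means of 7.89 and 6.77, against 8.17 and 6.6. What these did to the sterol values was not tested.

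In lung CD11b+ cells all 17 sterol enzymes had negative differences (16 after quantile normalization; 49.5% of all genes), with a median of -0.44 against 0 over all genes, and 7 did not overlap (24.8% of all genes). Limma called 0 of the 37 members, where 0.338% of all genes were called, and 6 members had an unadjusted p under 0.05 (6.71% of all genes). Srebf2 had the smallest p of them, with WT arrays at 10.27 and 10.26, BRAF arrays at 8.31 and 9.21 and a difference of -1.51 ± 0.5 (adjusted p = 0.372). Both BRAF arrays lay below both WT arrays. Sc5d and Insig1 differed by -0.77 ± 0.32 and -0.88 ± 0.37 (adjusted p = 0.615 and 0.619), also without overlap. Among the fatty acid enzymes Fasn, Acaca, Elovl6 and Fads1 had lower BRAF arrays without overlap and Scd2 higher ones (21.6% of all genes), with differences of -0.88 to 0.6.

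The enzymes were low on 1 of the 2 BRAF lung CD11b+ arrays. Replicate 1 was lower than replicate 2 for 16 of 17 enzymes, by a median of 0.97. Cyp51 read 6.49 and 8.81 on BRAF replicates 1 and 2 and 8.63 and 8.55 in WT, and Idi1 read 6.58 and 9.15 against 9.13 and 9.16. Replicate 2 thus lay at the WT level in both genes, and replicate 1 far below it. Some genes of the LXR side were high on replicate 1. Nr1h3 read 10.07 against 7.69 on replicate 2 and 7.68 and 7.64 in WT. Abca1 read 10.44 against 8.53, 9.15 and 9.46, and Mylip 9.04 against 7.98, 8.59 and 8.57. Scd1, also an LXR target, read 11.12 against 7.61, 8.86 and 8.12. Abcg1 was above WT on both BRAF arrays (10.63 and 10.35, WT 9.73 and 9.93). Srebf1 differed little between arrays (7.84 and 7.93, WT 7.94 and 7.95).

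Some macrophage markers moved with this array, and others did not. The mean of 6 Kupffer cell genes was 9.09 on BRAF replicate 1, 6.44 on replicate 2 and 7.08 on both WT arrays. Vsig4, a complement receptor of resident macrophages, read 11.94 and 5.87 on the BRAF arrays, and Cd5l, a secreted macrophage protein and LXR target, 10.33 and 5.2. Clec4f and Marco of that list differed little between them (6.63 and 6.36, 6.8 and 6.43). The mean of 9 conventional dendritic cell markers was 8.27 on replicate 1 and 9.11 on replicate 2, against 9.74 and 9.66 in WT. The mean of 6 alveolar macrophage genes went the other way, at 7.26 on replicate 1 and 8.93 on replicate 2 (WT 7.12 and 6.44), as did that of 5 monocyte genes, at 9.62 and 10.36 (WT 9.13 and 8.86). Of the alveolar list, Chil3 (8.2 and 11.38) and Car4 (6.67 and 10.86) lay furthest apart on the 2 BRAF arrays. Siglecf (7.54 and 8.11) and Pparg (10.28 and 10.32) differed little. Car4 was higher still in BMDC, at 12.34 to 13.12. The part of these cells in the sterol values was not tested. With replicate 1 alone as the BRAF group, differences of single members included Cyp51 at -2.09, Hmgcs1 at -1.76, Sqle at -1.95 and Nr1h3 at 2.41. A group of 1 array has no spread of its own, so these values describe that array. With replicate 2 alone the differences of these genes were 0.22, -0.17, 0.22 and 0.03, and the median of the 17 enzymes was -0.01.

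**Figure D3:**
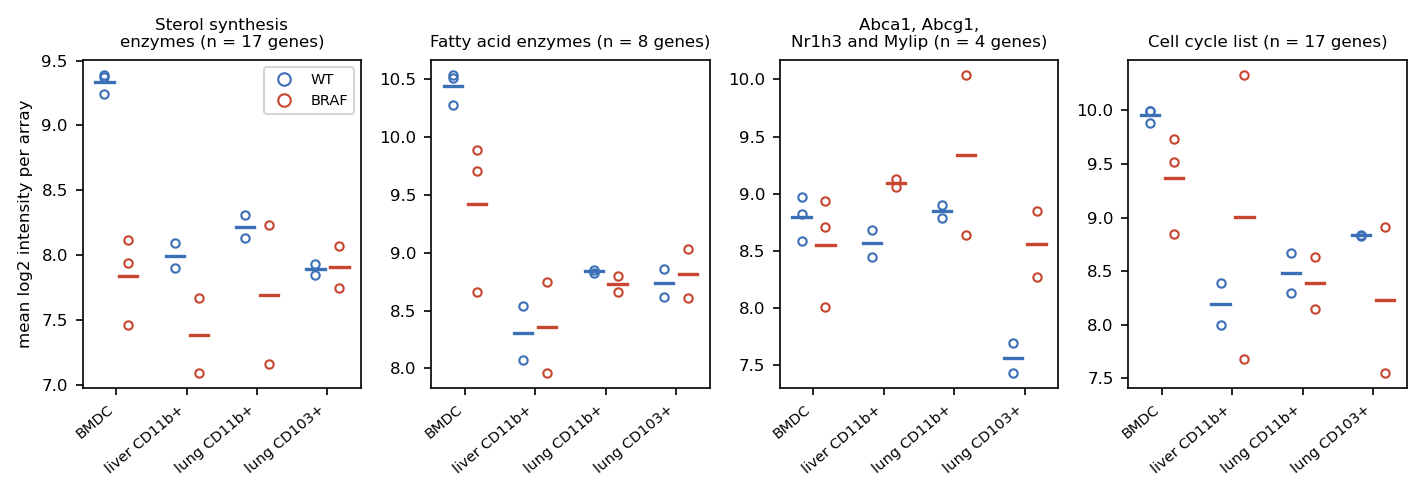
Mean log2 intensity per array of 4 gene groups in the 4 populations; circles are arrays (3 per genotype in BMDC, 2 elsewhere) and bars are group means. The sterol enzyme mean is 9.24 to 9.39 on WT BMDC arrays and at most 8.31 elsewhere, and BRAF lung CD11b+ replicate 1 has a low sterol mean (7.16) beside a high mean of Abca1, Abcg1, Nr1h3 and Mylip (10.04).

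In lung CD103+ cells the sterol enzymes had a median difference of -0.01, which was 0.03 after quantile normalization and 0.02 after centring on array medians, with 8 positive and 9 negative (65% of all genes negative). Of the 17, Hmgcs1, Msmo1 and Dhcr7 had higher BRAF arrays without overlap (9.16% of all genes), and Sc5d had lower ones (19.3%). Limma called 0 of the 37 members, where 0.0846% of all genes were called, and 3 had an unadjusted p under 0.05 (4.26% of all genes). Hmgcs1 read 8.39 and 8.3 in WT and 8.61 and 8.65 in BRAF cells, a difference of 0.28 (95% interval -0.5 to 1.07). Cyp51 differed by -0.16 (-1.19 to 0.87) and Sc5d by -0.26 (-0.95 to 0.42). The effect on Hmgcs1 in BMDC lay 2.23 ± 0.48 below that in lung CD103+ cells, which was not called (adjusted p = 0.156).

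The LXR and efflux genes had positive differences in lung CD103+ cells. All 4 measured were higher in BRAF cells without overlap (9.16% of all genes), with a median of 0.97 against -0.08 over all genes, and 0 were called. Abca1 read 6.44 and 6.06 in WT and 9.05 and 6.75 in BRAF cells, so that 1 BRAF array made most of the difference of 1.65 ± 0.65 (adjusted p = 0.877), which was 0.5 without BRAF replicate 1. Nr1h3 read 7.05 and 6.29 in WT and 7.83 and 7.63 in BRAF cells, a difference of 1.06 ± 0.49 (adjusted p = 1). Ch25h read 7.31 and 6.13 in WT and 9.57 and 8.16 in BRAF cells, with a difference of 2.14 ± 0.78 (adjusted p = 0.69).

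Macrophage markers were higher on the same BRAF lung CD103+ arrays. All 9 measured had a positive difference, with a median of 2.14, where 65% of all genes had a negative one. Of the 9, 7 did not overlap (9.16% of all genes had higher BRAF arrays) and 1 was called (0.0846%). Their mean was 8.33 and 6.55 in WT and 10.24 and 9.03 in BRAF cells. The lowest BRAF mean lay above the highest WT mean. The called gene was Fcgr4, an Fc receptor, at 3.71 ± 0.64 (adjusted p = 0.0436). Adgre1 lay at 6.92 to 8.58 in WT and at 9.42 to 10.32 in BRAF cells, while Xcr1 lay at 12.42 to 12.58 and 12.22 to 12.43. Other type 1 dendritic cell markers were lower in BRAF cells without overlap (19.3% of all genes). These were Cd207 (8.67 to 9.14 in WT, 6.36 to 6.64 in BRAF), Tlr3 (11.25 to 11.33, 10.94 to 11.11) and Irf8 (12.52 to 12.72, 12.32 to 12.44). The rest of that list overlapped. The mean of 9 hepatocyte genes was 7.68 on BRAF replicate 1 and at most 6 on the other CD103+ arrays, and the cell cycle mean was 7.55 on it against at least 8.83. The part of these lists in the LXR values was not tested. Of 9 further LXR targets and partners 3 had an unadjusted p under 0.05 there, among them Lpl, lipoprotein lipase, at 2.1 ± 0.59 and Pltp, phospholipid transfer protein, at 2.1 ± 0.61 (adjusted p = 0.332 and 0.35).

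Between the lung populations 1 of 37 members was called, a smaller share than the 5.64% of all genes. Over both genotypes Abca1 was lower in lung CD103+ than in lung CD11b+ cells by 2.32 ± 0.46 (adjusted p = 0.00524). The 4 CD103+ arrays read 6.06 to 9.05 and the 4 CD11b+ arrays 8.53 to 10.44, and they overlapped only in BRAF CD103+ replicate 1 (9.05) and BRAF CD11b+ replicate 2 (8.53). The call held without each of the 8 lung arrays in turn, and without BRAF lung CD11b+ replicate 2 there were 3 members called, Abca1, Nr1h3 and Scd1. Between liver and lung CD11b+ cells 0 members were called by limma, where 2.12% of all genes were; the nearest was Tm7sf2, 0.45 ± 0.14 higher in liver (adjusted p = 0.111), and 3 were called without BRAF lung CD11b+ replicate 1 and 1 without replicate 2.

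**Figure D4:**
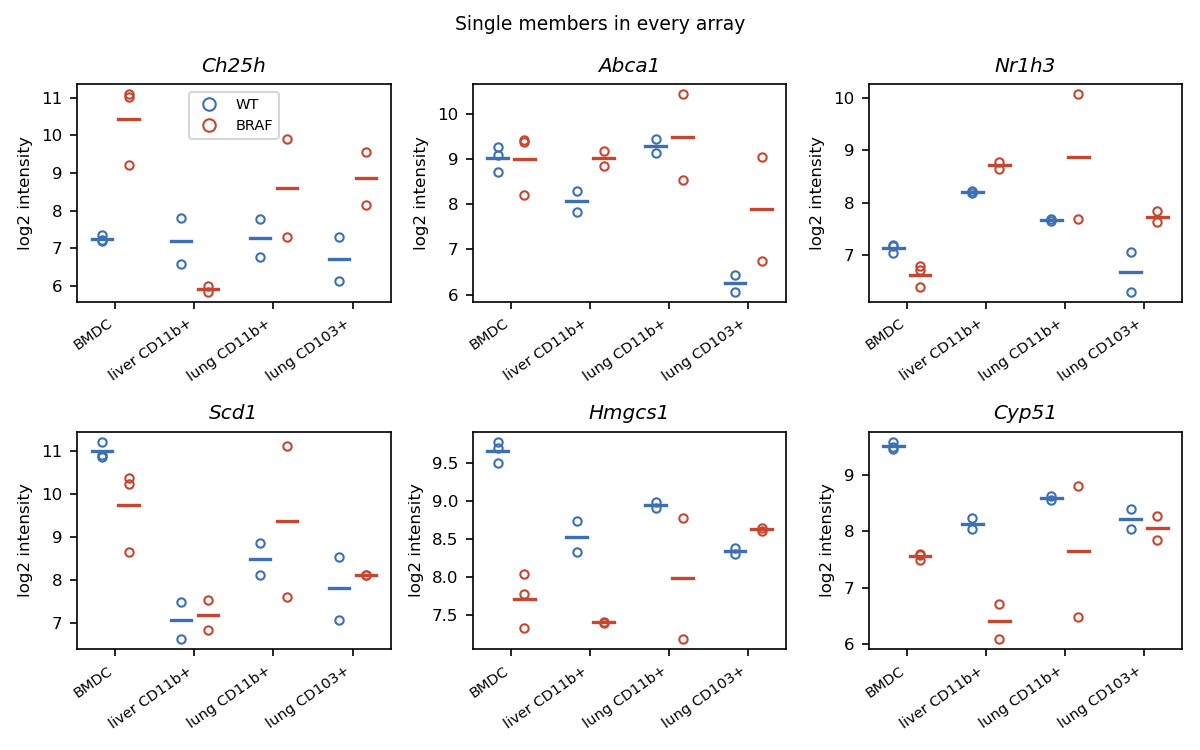
Log2 intensity of Ch25h, Abca1, Nr1h3, Scd1, Hmgcs1 and Cyp51 on every array, by population and genotype; circles are arrays and bars are group means. Ch25h is at 9.22 to 11.09 on BRAF BMDC arrays and at most 7.34 on WT BMDC arrays, and in lung CD11b+ cells the 2 BRAF arrays lie far apart in all 6 genes.

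Taking the 4 populations with equal weight, 5 members were called, where 0.989% of all genes were, and all 5 fell, where 0.501% did: Hmgcs1 (-0.94 ± 0.18, adjusted p = 0.0198), Sc5d (-0.85 ± 0.15, 0.0161), Cyp51 (-1.2 ± 0.23, 0.0238), Mvd (-0.67 ± 0.14, 0.029) and Lss (-0.75 ± 0.16, 0.04). Insig1 at -0.79 ± 0.18 and Stard4 at -0.63 ± 0.15 lay just outside the threshold (adjusted p = 0.052 and 0.0573). Ch25h at 1.35 ± 0.37 was not called (adjusted p = 0.124), and its difference was negative in liver. With a replicate block 1 of the 5 stayed called, Sc5d (adjusted p = 0.0408), and Hmgcs1 and Mvd were at 0.0566 and 0.051. The number called ran from 0, without WT lung CD11b+ replicate 3 or BRAF lung CD103+ replicate 1, to 12, without BRAF lung CD11b+ replicate 2. It was 1 without WT liver CD11b+ replicate 1 or WT lung CD11b+ replicate 1, and 2 without BRAF liver CD11b+ replicate 2. It was 3 without WT BMDC replicate 2, WT lung CD103+ replicate 3 or BRAF BMDC replicate 1. It was 8 without BRAF BMDC replicate 2 and 10 without BRAF liver CD11b+ replicate 3. At an unadjusted p under 0.05 there were 9.37% of all genes.

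A difference of the effect between populations was not called for any member by the moderated F test of limma, where 0.124% of all genes were called. At an unadjusted p under 0.05 there were 16 of 37 members, and 9.1% of all genes. Hsd17b7 had the smallest adjusted p (0.12), with effects of -1.86 in BMDC, -0.13 in liver, and -0.31 and 0.21 in the CD11b+ and CD103+ cells of lung. In pairs of populations the closest to the threshold was Mvk, whose effect in BMDC lay 1.26 ± 0.26 below that in liver (adjusted p = 0.0946). The effect on Ch25h in BMDC lay 4.46 ± 1.01 above that in liver (adjusted p = 0.121). In these pairs 0 members were called by limma, where 0.137%, 0.13% and 0.0521% of all genes were called for BMDC against CD11b+ cells of liver, CD11b+ cells of lung and CD103+ cells, and 0 genes for the other pairs. The F test called 3 members without BRAF lung CD11b+ replicate 1 and 4 without replicate 2.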

How the data were processed

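Per the labels' protocols, RNA was isolated in Trizol and carried a biotin label on the array. Each deposited value is a linear intensity per probe set; the authors' background correction and normalization are not stated in the labels and were not analysed here. Log2 was taken here with no constant and no further normalization. Of the probe sets with 1 gene symbol, the one of highest mean stood for each gene. A gene was tested if it exceeded the 30th percentile of an array on 2 arrays or more (15365 genes). One model with 8 group means covered the 18 arrays (limma 3.58.1, R 4.3.3; 10 residual and 4.8 prior degrees of freedom). Tables and plots used Python 3.11.15 with pandas 2.3.3, numpy 2.4.6 and matplotlib 3.10.9. The code was tested on simulated data.

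The members and lists were chosen with earlier results of these data known. Genes named were the members; per pathway list and genotype comparison, called genes (at most 4) or else up to 2 of smallest p; markers at the highest and lowest level; and Braf. Chosen after their values were seen were Flt3, Xcr1, Clec9a, Adgre1, Fcgr4, Vsig4, Cd5l, Clec4f, Marco and the comparison of WT BMDC with all other arrays. The same holds for Kit, Irf4, Itgax, Cd207, Tlr3, Irf8, Chil3, Car4, Siglecf and Pparg. Same-numbered BMDC arrays deviated with correlations of 0.47, -0.23 and -0.4. With 3 arrays per genotype these cannot settle whether the numbers pair the arrays. In lung, arrays of 1 number and genotype correlated at 0.16 and 0.22. Alternatives covered scaling, filter, probe sets, variance model, samples fitted, a replicate block and left-out arrays.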

Additional observations from a re-analysis of the deposited data

How the results depend on the processing

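Under the alternatives run, no called member changed direction. Members called in BMDC numbered 12 in the fit reported, 25 with array weights (24 lower) and 6 when the BMDC arrays were fitted alone. Of the 12 reported, only 4 stayed called in the fit of the BMDC arrays alone. After quantile normalization 9 of the 12 stayed called, and after centring on array medians 10. With the replicate number as a replicate block the members called in BMDC numbered 8, and it is not known whether these numbers pair the arrays. They numbered 9 without the 2 arrays of narrowest spread and 1 to 10 leaving out single arrays. Among lung CD11b+ cells 0 became 1 with array weights. The 5 members called in the mean over populations became 11 after quantile normalization, 1 with the replicate block, 9 without the 2 narrow arrays and 0 to 12 leaving out each array. Between lung CD103+ and CD11b+ cells 1 became 2 after quantile normalization, with array weights, and when the lung groups were fitted alone, 3 without the narrow arrays and 1 to 3 leaving out each array; between liver and lung CD11b+ cells 0 became 1 without the narrow arrays and 0 to 3 leaving out each array. Members whose effect differed between populations became 5 with array weights and 0 to 4 leaving out each array. The median of the 17 sterol enzymes in BMDC was -1.36 without the narrow arrays and -1.78 to -1.36 leaving out each array, and in liver -1.06 to -0.48. The cause of these shifts was not tested, beside the loss of arrays itself. Centring on array medians moved the median of all genes in liver to 0.14 and that of the 17 enzymes to -0.76. Groups of 2 arrays left 1 array when another was left out, which was assumed to vary like the other groups.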

Other observations

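In liver CD11b+ cells, genes that burn fatty acids had positive differences without a call. All 15 fatty acid oxidation genes tested had positive differences, where 43.7% of all genes had negative ones. Of these, 10 did not overlap (22.7% of all genes), and the median was 0.69 against 0.08 over all genes. Limma called 0 of the 15, with 6 at an unadjusted p under 0.05 (14.1% of all genes). The mean over the 16 genes measured was 8.28 and 7.78 on WT replicates 1 and 3 and 8.49 and 8.82 on the BRAF arrays, a difference of 0.63 that was 0.38 without WT replicate 3, the array of narrow spread, a setting chosen after seeing the data. Hadh, a dehydrogenase of the mitochondrial beta-oxidation cycle, differed by 1.25 ± 0.4 (adjusted p = 0.224) and Acaa2, the thiolase that ends a cycle, by 1.19 ± 0.41 (adjusted p = 0.252). Of 10 genes of SREBP processing 9 had positive differences with a median of 0.61, and Erlin1, an endoplasmic reticulum protein that restrains SREBP, was nearest to the threshold at 1.05 ± 0.21 (adjusted p = 0.0616). The mean over these 10 genes differed by 0.48, and by 0.17 without WT replicate 3. Pgrmc1, a partner of INSIG1, differed by 0.94 ± 0.25 (adjusted p = 0.159). The cell cycle list had positive differences for all 17 genes in these cells. As given above, its mean was above WT on BRAF replicate 3 and below both WT arrays on BRAF replicate 2. Its part in these values was not tested.

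In lung CD11b+ cells Dgat2, which makes triglyceride, differed by -1.45 ± 0.43 (adjusted p = 0.241), and Lpl, which frees fatty acids from lipoproteins, by 1.69 ± 0.59 (adjusted p = 0.429). Cd36, a scavenger receptor for lipoproteins and fatty acids, differed by 0.93 ± 0.45 (adjusted p = 0.768).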
